A study of Homo sapiens with 5 samples.

Results

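The aryl hydrocarbon receptor (AHR), its repressor AHRR and 4 of its classic target genes, CYP1A1, CYP1A2, CYP1B1 and TIPARP, were examined in 22Rv1 cells, an established human prostatic carcinoma line. These 6 genes were chosen by symbol with results of these data known, and all 6 are among the 26506 genes of each deposited table. Total RNA was sequenced in 5 libraries, 1 per group, from cells taken 72 hours after lentivirus was added in medium with 10% serum. One table holds cells that overexpress ESM1 and their control, Vector-1. The other holds cells that overexpress ESM1-NLS, cells that overexpress ESM1-NES, and the control of both, Vector-2. The labels do not spell out NLS and NES, which commonly stand for a nuclear localisation and a nuclear export signal. All groups, controls included, received lentivirus, and the labels do not say whether a group is 1 culture or a pool. The ESM1 gene was listed at 2437 FPKM in ESM1, 2627 in ESM1-NLS and 3431 in ESM1-NES, and at 0 in Vector-1 and Vector-2.

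AHR is a transcription factor of the bHLH-PAS family that binds planar aromatic ligands, among them combustion products, dioxin and derivatives of tryptophan. Without ligand it is held in the cytosol by a chaperone complex that includes HSP90 and p23. With ligand it enters the nucleus, pairs with ARNT and binds xenobiotic response elements, whose core letters are GCGTG. CYP1A1, CYP1A2 and CYP1B1 encode cytochrome P450 enzymes that oxidise such ligands and also steroid hormones. AHRR competes with AHR for ARNT, and TIPARP, an ADP-ribosyltransferase, restrains AHR, so both form negative feedback.

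The main contrast in these genes lay between the experiments and not between a form of ESM1 and its vector. CYP1A1 was at 39.6 FPKM in ESM1 against 44.6 in Vector-1, and 5.86 in ESM1-NLS and 4.47 in ESM1-NES against 4.21 in Vector-2. CYP1A2, CYP1B1, AHR and TIPARP had the same split, with both libraries of the ESM1 table above all 3 of the other table, and AHRR lay the other way. FPKM is a read number per kilobase of transcript, scaled to depth. The table with ESM1 and Vector-1 names no unit, was taken as FPKM from its values and was normalised apart from the other table. With 1 library in each group nothing has a replicate check and no test across samples can be made. Culture, experiment and table cannot be told apart in any contrast that crosses the tables. In RNA from whole cultures, fewer cells that express a gene and less RNA per cell cannot be told apart either.

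Libraries of ESM1-NLS, ESM1-NES and Vector-2 held 18447256 to 24322216 reads, as sums of expected counts. Depth was estimated at 13760000 reads in ESM1 and 15250000 in Vector-1, so read numbers there are estimates. Intervals after a ratio of FPKM are exact 95% intervals (Clopper-Pearson, on reads) and cover counting error only. All 9 luminal prostate markers were at 6.79 FPKM or more in every library. They were not level between the experiments, with 7 of 9 lower in Vector-1 than in Vector-2, where 59.3% of all genes were, and a median log2 difference of -0.38. KLK3, the gene of prostate-specific antigen, was at 9.48 FPKM in Vector-1 and 20.3 in Vector-2. Markers of endothelial cells summed to 0.01 to 0.07 FPKM, of fibroblasts to 2.86 to 4.16 and of leukocytes to 1.84 to 3.0. The 4 hepatocyte markers, of the tissue in which CYP1A2 is best known, summed to 150.5 FPKM in Vector-1 and 64.8 in Vector-2, of which ALB made up 150.2 and 63.9. The part of these markers in the results was not tested.

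**Figure D1:**
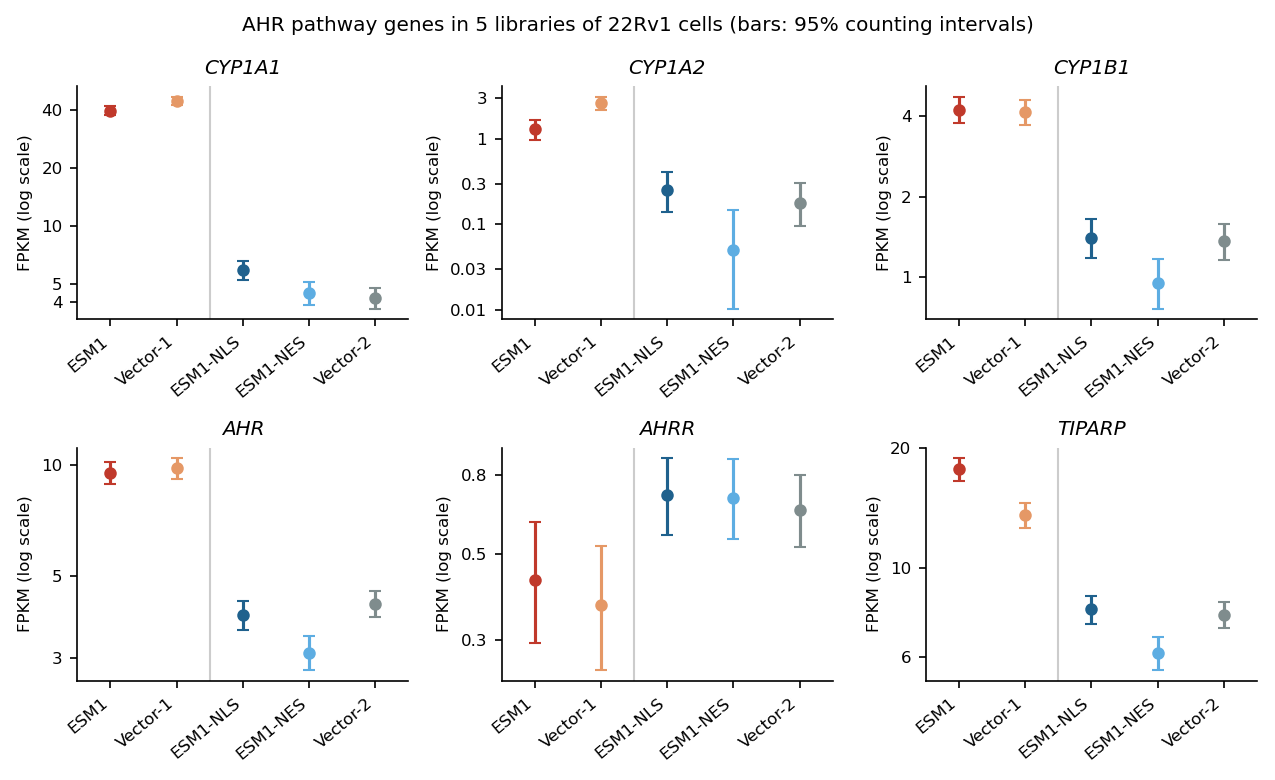
FPKM of each gene (vertical axis, log scale, its own range in each panel) in the 5 libraries (horizontal axis), 1 point per library with an exact 95% counting interval; the grey line divides the tables. CYP1A1 is at 39.6 FPKM or more left of the line and at most 5.86 FPKM right of it, and AHRR is the gene that lies lower on the left.

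Promoter sequence is shown for the 3 genes that carry the core letters of the response element in the window searched, which stand on both sides of the contrast between the vectors: CYP1A1 and TIPARP were higher in Vector-1 and AHRR was lower. Each line is the 250 bases before the RefSeq start on GRCh38.p14, 5′ to 3′ on the strand of the gene, with GCGTG or its reverse complement CACGC in capitals. The CYP1A1 window is chr15:74725529-74725778 on the minus strand. The AHRR window is chr5:321464-321713 and the TIPARP window chr3:156674340-156674589, both on the plus strand and both before the most upstream of several listed starts.
CYP1A1: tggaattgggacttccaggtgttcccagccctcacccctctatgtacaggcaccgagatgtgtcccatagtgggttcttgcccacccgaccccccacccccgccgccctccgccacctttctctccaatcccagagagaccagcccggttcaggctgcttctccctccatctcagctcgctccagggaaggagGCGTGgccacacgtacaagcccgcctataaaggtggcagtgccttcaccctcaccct
AHRR: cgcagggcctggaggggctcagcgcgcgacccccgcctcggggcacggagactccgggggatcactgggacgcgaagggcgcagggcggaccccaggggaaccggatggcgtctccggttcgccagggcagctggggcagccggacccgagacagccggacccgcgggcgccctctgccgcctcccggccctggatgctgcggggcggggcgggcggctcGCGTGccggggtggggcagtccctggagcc
TIPARP: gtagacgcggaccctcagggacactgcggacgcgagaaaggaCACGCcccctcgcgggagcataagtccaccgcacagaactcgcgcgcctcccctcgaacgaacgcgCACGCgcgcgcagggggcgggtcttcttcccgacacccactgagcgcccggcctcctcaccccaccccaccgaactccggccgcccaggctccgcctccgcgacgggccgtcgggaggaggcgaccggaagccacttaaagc

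CYP1A1 held 1 match, 57 to 53 bases before the start. AHRR held 1 match, 30 to 26 bases before the start, and TIPARP held 2, both as CACGC, at 208 to 204 and 142 to 138 bases. CYP1A2 and AHR held 0 in the same window, which says only that these letters are not in it. CYP1B1 was not analysed here for sequence. Both strands were searched, and 32.2% of 35116 windows of this length hold GCGTG. The longer form TNGCGTG, which contains the core, was found in 4.52% of windows and among the 5 genes searched in AHRR alone. A match describes letters and is not a binding site.

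CYP1A1, the inducible P450 most used as a readout of AHR activity, was 10.6 times as high in Vector-1 as in Vector-2 (9.29 to 12.1). About 1726 reads stood behind the Vector-1 value and 260 behind that of Vector-2. On the scale of log2(FPKM + 1) the difference was 3.13, which ranked 2 from the top of the 12685 genes that averaged at least 1 FPKM in the vectors. ESM1, the lower library of its table, was 6.76 times as high as ESM1-NLS (5.95 to 7.68), the highest of the other, so the levels of the tables did not overlap. ESM1-NES and Vector-2 were the only neighbours in the order of the 5 levels whose ratio had an interval that holds 1, at 1.06 (0.879 to 1.28).

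CYP1A2, which lies beside CYP1A1 on chromosome 15 and is best known as a liver enzyme, was far lower throughout. It was at 1.30 FPKM in ESM1 against 2.64 in Vector-1, and 0.25 in ESM1-NLS and 0.05 in ESM1-NES against 0.18 in Vector-2. Vector-1 was 14.7 times as high as Vector-2 (8.43 to 28.9), on about 122 reads against 13. ESM1-NLS, Vector-2 and ESM1-NES could not be told apart by counting error, each from its neighbour in the order of levels. CYP1A1 and CYP1A2 are paralogs, and an expected count is fractional where a read was divided between genes. Those of CYP1A1 were whole in ESM1-NLS, ESM1-NES and Vector-2, and those of CYP1A2 were 15.02 in ESM1-NLS and 3 in ESM1-NES against 13.06 in Vector-2. CYP1A1 was 16.9 times CYP1A2 in Vector-1 and 23.4 times CYP1A2 in Vector-2, both in FPKM. The genes EDC3 and CSK on either side of the pair did not have a contrast of its size. EDC3 was at 21.8 FPKM in Vector-1 and 17.2 in Vector-2, a ratio of 1.27 (1.18 to 1.37). It had the same split between the tables, at 22.1 FPKM in ESM1, 18.85 in ESM1-NLS and 17.3 in ESM1-NES. CSK was at 31.8 FPKM in Vector-1 and 32.2 in Vector-2.

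CYP1B1, on chromosome 2, encodes the family member best known outside the liver, which hydroxylates estrogens. Its level was 4.23 FPKM in ESM1 against 4.14 in Vector-1, and 1.40 in ESM1-NLS and 0.95 in ESM1-NES against 1.36 in Vector-2. Vector-1 was 3.04 times as high as Vector-2 (2.52 to 3.69). In the order of levels, counting error did not separate ESM1 from Vector-1, nor ESM1-NLS from Vector-2. CYP1A1 was 10.8 times CYP1B1 in Vector-1 and 3.10 times CYP1B1 in Vector-2, both in FPKM, so the contrast was larger in CYP1A1.

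AHR itself, on chromosome 7, had the same split at a smaller size. It was at 9.54 FPKM in ESM1 against 9.80 in Vector-1, and 3.91 in ESM1-NLS and 3.09 in ESM1-NES against 4.20 in Vector-2. Vector-1 was 2.33 times as high as Vector-2 (2.11 to 2.58), a log2 difference of 1.05. Counting error did not separate Vector-1 from ESM1, nor Vector-2 from ESM1-NLS. AHR transcripts are among the 10% of protein-coding transcripts with the lowest GC content, and genes of that class had a median log2 difference of 0.15 between the vectors.

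TIPARP, on chromosome 3, had the smallest ratio of the 5 genes that were higher in Vector-1. TIPARP was at 17.7 FPKM in ESM1 against 13.6 in Vector-1, and 7.88 in ESM1-NLS and 6.12 in ESM1-NES against 7.65 in Vector-2. Vector-1 was 1.77 times as high as Vector-2 (1.61 to 1.98). TIPARP was also the only 1 of the 6 genes whose highest library was ESM1 by more than counting error. An antisense gene, TIPARP-AS1, was at 0.24 FPKM or less in every library.

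AHRR, on chromosome 5, was low and lay the other way. It was at 0.43 FPKM in ESM1 against 0.37 in Vector-1, and 0.71 in ESM1-NLS and 0.70 in ESM1-NES against 0.65 in Vector-2. Vector-1 was at 0.569 of Vector-2 (0.361 to 0.855), on about 31 reads against 88. AHRR transcripts are among the 10% with the highest GC content, and genes of that class had a median log2 difference of -0.40 between the vectors, while AHRR had -0.27. AHRR was at 0.0378 of the FPKM of AHR in Vector-1 and at 0.155 of it in Vector-2. A readthrough gene, PDCD6-AHRR, overlaps AHRR in RefSeq and was not analysed here, so reads of it may be counted to AHRR. PDCD6 was at 95.7 FPKM in Vector-1 and 103.0 in Vector-2, and EXOC3, on the other side of AHRR, at 9.14 in Vector-1 and 11.8 in Vector-2.

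Of the 6 genes, 5 averaged at least 1 FPKM over the vector libraries, and AHRR did not. CYP1A2 passed that limit only through Vector-1. At 2-fold 4 were higher and 0 lower in Vector-1, where 1.08% of 12685 genes were higher by that much and 3.67% lower. At 1.5-fold 5 were higher and 0 lower, where 4.91% of genes were higher and 14.3% lower. Since this contrast was among the results known when the genes were chosen, the counts describe them and support nothing. Over all 6 genes the median log2 difference was 1.09, and over all 12685 genes it was -0.10. Tables that differ as a whole separate many genes: both libraries of the ESM1 table lay above all 3 others in 27.4% of genes, and below them in 40.4%. Separation upward by at least 2-fold, which CYP1A1, CYP1B1 and AHR had, was found in 0.525% of 12766 genes.

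**Figure D2:**
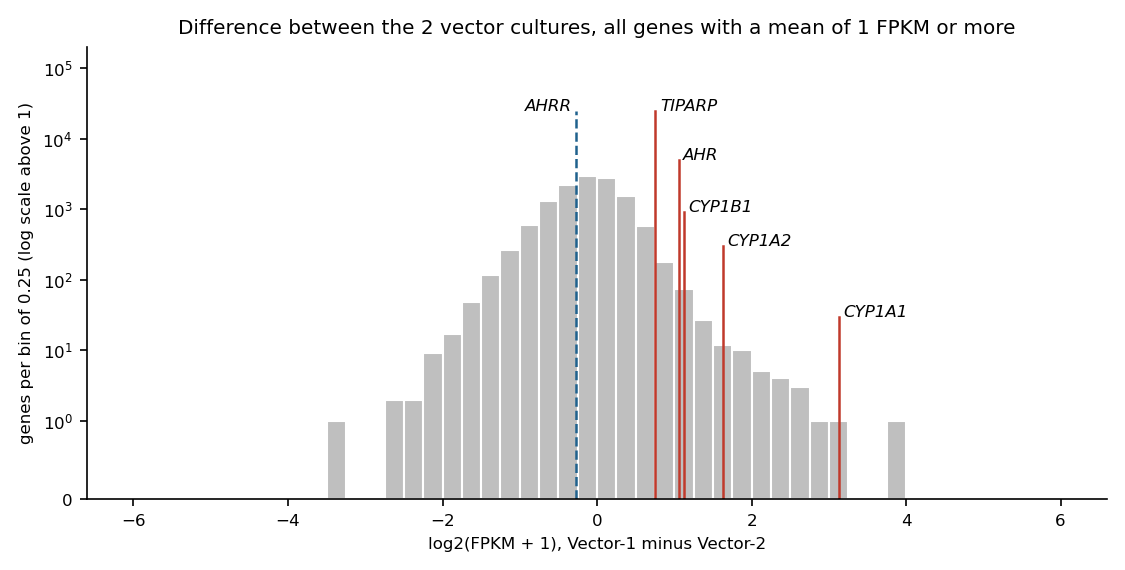
Histogram of the difference in log2(FPKM + 1), Vector-1 minus Vector-2 (horizontal axis), over the 12685 genes that averaged at least 1 FPKM (vertical axis, genes per bin, log scale above 1). Lines mark the 6 genes, dashed for AHRR, whose mean was below the limit; their heights only keep the names apart. CYP1A1 lies at 3.13, in the far upper tail, and TIPARP at 0.75.

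In the comparison of ESM1 with Vector-1, CYP1A2 was lower, TIPARP was higher and the other genes differed little. CYP1A2 had 0.492 of its Vector-1 level (0.349 to 0.681), on about 54 reads against 122. TIPARP was at 1.30 times its Vector-1 level (1.18 to 1.44). CYP1A1 had 0.888 of its Vector-1 level (0.826 to 0.953), a small difference on many reads. CYP1B1 had a ratio of 1.02 (0.870 to 1.2), AHR 0.973 (0.885 to 1.07) and AHRR 1.16 (0.700 to 1.99), and these intervals hold 1. Intervals that exclude 1 are common, found in 34.8% of 12289 genes here, and 3 of the 5 genes that averaged at least 1 FPKM had one. The 5 genes that averaged at least 1 FPKM included 0 at 2-fold, against 0.285% of 12296 genes in either direction. At 1.5-fold 1 gene, CYP1A2, was lower, against 0.325% of genes lower and 1.51% in either direction. That call is lost with a pseudocount of 5, where the log2 difference of CYP1A2 was -0.28 and not -0.66.

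In the comparison of ESM1-NLS with Vector-2, CYP1A1 was higher and was the only 1 of the 6 genes whose interval excluded 1, where 39.2% of all genes had such an interval. It was 1.39 times as high in ESM1-NLS (1.17 to 1.65), on 297 reads against 260 in the deeper Vector-2 library. Its log2 difference was 0.40, where the median was 0.05 over genes of 2000 to 4000 bases and 0.07 over genes of like GC content. TIPARP had a ratio of 1.03 (0.930 to 1.16), CYP1B1 1.03 (0.817 to 1.29), AHR 0.931 (0.825 to 1.05) and AHRR 1.09 (0.796 to 1.5), all with intervals that hold 1. CYP1A2, with 15 reads against 13, had a ratio of 1.39 (0.624 to 3.21), so a difference was not detectable at this depth. The 4 genes that averaged at least 1 FPKM included 0 at 2-fold or 1.5-fold, against 0.123% and 0.869% of 13000 genes. In the authors' deposited table CYP1A1 had a fold change of 1.37 and a PPEE of 0.959. PPEE is by its name a posterior probability of equal expression, so this value lies on the side of equal expression. It was the lowest PPEE of the 6 genes in either comparison of the authors' deposited table.

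In the comparison of ESM1-NES with Vector-2, AHR, CYP1B1 and TIPARP were lower and CYP1A1 was level. AHR had 0.736 of its Vector-2 level (0.645 to 0.840), CYP1B1 at 0.699 (0.534 to 0.908) and TIPARP at 0.8 (0.717 to 0.915). CYP1A1 had a ratio of 1.06 (0.879 to 1.28), and its log2 difference of 0.07 became -0.03 with TPM. AHRR had a ratio of 1.08 (0.779 to 1.49). CYP1A2 had 3 reads in ESM1-NES against 13 in Vector-2, a ratio of 0.278 (0.0556 to 1.11), so a difference was not detectable at this depth. The 4 genes that averaged at least 1 FPKM included 0 at 2-fold or 1.5-fold, against 0.225% and 2.55% of 12902 genes. Intervals excluded 1 for 3 of these 4 and for 56.6% of all genes, so such an interval does not set them apart. Long and AT-rich transcripts were lower in ESM1-NES as a class. AHR had a log2 difference of -0.35, where the class of lowest GC content had a median of -0.24 and genes of 4000 to 8000 bases -0.20. CYP1B1, of that length too, had -0.28. TIPARP also had -0.28, where genes of like GC content had -0.18 and genes of its length -0.01. The part of length and GC content in these values was not tested. In the authors' deposited table the fold changes were 0.763 for AHR, 0.725 for CYP1B1 and 0.841 for TIPARP. Their PPEE of 0.992 to 0.998 lay on the side of equal expression.

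In the comparison of ESM1-NLS with ESM1-NES, CYP1A1, CYP1B1, TIPARP and AHR were higher in ESM1-NLS with intervals that exclude 1, as were 33.3% of all genes. CYP1A1 had a ratio of 1.31 (1.10 to 1.57), CYP1B1 1.47 (1.12 to 1.94), TIPARP 1.29 (1.13 to 1.45) and AHR 1.27 (1.10 to 1.45). CYP1A2 had 15 reads in ESM1-NLS and 3 in ESM1-NES, a ratio of 5.0 (1.31 to 24.9). AHRR was level, with a ratio of 1.01 (0.727 to 1.41). The 4 genes that averaged at least 1 FPKM included 0 at 2-fold or 1.5-fold, against 0.139% and 1.13% of 12915 genes. The median log2 difference over genes of 4000 to 8000 bases was 0.18, where AHR had 0.26 and CYP1B1 0.30. The median over genes of like GC content was 0.20 for AHR, and 0.14 for TIPARP, which had 0.32. The 3 comparisons among ESM1-NLS, ESM1-NES and Vector-2 share libraries and are not independent.

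**Figure D3:**
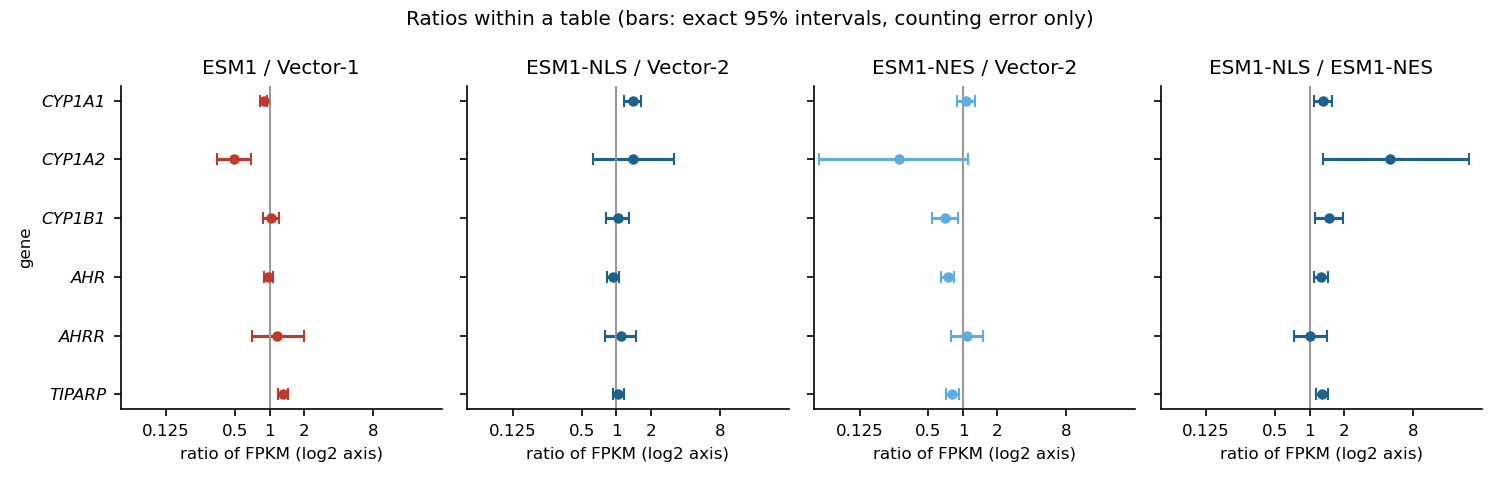
Ratio of FPKM within a table (horizontal axis, log2 spacing) for the 6 genes (vertical axis) in 4 comparisons, with exact 95% intervals for counting error. The 3 ratios below 0.5 or above 2 are all of CYP1A2, at 0.492, 0.278 and 5.0, the last 2 on 3 reads in ESM1-NES.

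Other reported AHR targets were taken from a list of 19 genes, of which 9 averaged at least 1 FPKM in the vectors. In Vector-1 against Vector-2, 3 of these passed 2-fold upward and 0 downward, where 1.08% and 3.67% of all genes did. Of the 9, 7 lay above 0, where 40.6% of all genes did, and the median log2 difference was 0.56. This list too was chosen with earlier results of these data known, so its counts describe it and support nothing. UGT1A1, which glucuronidates bilirubin and foreign compounds, was at 11.8 FPKM in ESM1 against 15.5 in Vector-1, and 2.46 in ESM1-NLS and 1.26 in ESM1-NES against 1.92 in Vector-2. Vector-1 was 8.07 times as high as Vector-2 in UGT1A1 (6.54 to 10.0). UGT1A6, of the same locus, was at 2.10 FPKM in Vector-1 and 0.20 in Vector-2, and passed the limit only through Vector-1. UGT1A3, added after its values were seen, was at 6.15 FPKM in Vector-1 and 0.40 in Vector-2. The UGT1A genes share their last exons, so how reads were divided among them is uncertain. ABCG2, a drug efflux pump, was at 4.31 FPKM in Vector-1 and 1.01 in Vector-2, with a ratio of 4.27 (3.40 to 5.37).

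The remaining targets on that list that averaged at least 1 FPKM differed less on the log2(FPKM + 1) scale and not in 1 direction. NQO1, a quinone reductase that NRF2 induces too, was 1.53 times as high in Vector-1 (1.41 to 1.66), and the amino acid transporter SLC7A5 1.48 times (1.42 to 1.54). NFE2L2, which encodes NRF2, had a ratio of 1.04 (0.970 to 1.12). STC2, a secreted glycoprotein, lay the other way, at 0.448 of its Vector-2 level (0.383 to 0.521). Its difference on the log2(FPKM + 1) scale was -0.93, so it was not counted at 2-fold. Among targets that averaged less than 1 FPKM, CYP2S1 had a ratio of 0.254 (0.0849 to 0.584) and PTGS2 2.11 (1.11 to 4.03). In ESM1 against Vector-1 the 3 genes of this list with the largest differences were all lower in ESM1. UGT1A1 had 0.761 of its Vector-1 level (0.664 to 0.869), UGT1A6 at 0.667 (0.449 to 0.975) and ABCG2 at 0.668 (0.548 to 0.808). In that comparison 6 of 9 lay below 0, where 46.9% of all genes did, and 0 passed 1.5-fold on the log2(FPKM + 1) scale. Against Vector-2, 7 of 8 lay above 0 in ESM1-NLS, where 54.1% of all genes did, and 5 of 8 below 0 in ESM1-NES, where 53.9% did, with 0 past 1.5-fold in either.

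Most genes of the machinery around the receptor did not have the contrast between the vectors, and neither did most genes at large. Among all genes 4.91% were 1.5-fold higher in Vector-1 and 14.3% were 1.5-fold lower. ARNT, the partner AHR needs to bind DNA, was at 17.8 FPKM in ESM1 against 19.1 in Vector-1, and 20.8 in ESM1-NLS and 16.7 in ESM1-NES against 19.6 in Vector-2. The ratio of Vector-1 to Vector-2 in ARNT was 0.970 (0.906 to 1.04). ARNTL, a clock gene of the same class, was at 2.04 FPKM in Vector-1 and 7.81 in Vector-2. The 6 genes of the cytosolic complex had 0 at 1.5-fold and a median log2 difference of 0.14. HSP90AA1, a chaperone, had a ratio of 1.33, and PTGES3, which encodes p23, 1.29. Among 11 coregulators 0 were 1.5-fold higher and 2 were 1.5-fold lower, ANKRA2 at 0.586 and HDAC5 at 0.629. Of 4 genes of ubiquitin ligases that act on AHR, 2 lay above 0 and 2 below. STUB1 was 1.5-fold lower, at 0.631 of its Vector-2 level (0.595 to 0.667). CUL4B lay the other way, at 30.7 FPKM in Vector-1 and 20.4 in Vector-2. Its difference on the log2(FPKM + 1) scale was 0.567, so it was not counted at 1.5-fold. CUL4B had the same split as AHR, at 29.7 FPKM in ESM1, 18.8 in ESM1-NLS and 16.2 in ESM1-NES.

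Tryptophan is broken down by way of kynurenine and kynurenic acid, which are AHR ligands, and genes of these steps were low or lay below 0 in Vector-1 against Vector-2. IDO1, IDO2 and TDO2 encode the entry enzymes. IDO2 and TDO2 were listed at 0 in every library, and IDO1 was at 0.73 FPKM in Vector-1 and 0.91 in Vector-2. The 4 genes of that list that averaged at least 1 FPKM all lay below 0, as did 59.3% of all genes. AFMID, whose enzyme releases kynurenine, was at a ratio of 0.699, and CCBL1 and AADAT, whose enzymes turn kynurenine into kynurenic acid, at 0.626 and 0.771. POR, an electron donor of the P450 enzymes, was 1.28 times as high in Vector-1. CYB5A had the largest difference of the listed donors and lay the other way, at 0.680 of its Vector-2 level (0.629 to 0.732). Of these 4 genes 3 lay above 0, where 40.6% of all genes did. Of 24 other P450 genes of families 2 to 4, 5 averaged at least 1 FPKM and 4 of these lay below 0, again beside 59.3% of all genes. CYP4F8, a fatty acid hydroxylase, was at 4.43 FPKM in Vector-1 and 13.1 in Vector-2. Relatives of TIPARP in the PARP family had 0 of 13 at 1.5-fold higher and 3 at 1.5-fold lower, PARP3, PARP8 and PARP15. That limit was passed by 4.91% of all genes upward and 14.3% downward. The xenobiotic receptor genes NR1I2 and NR1I3 were at 0.10 FPKM or less in every library. Among 8 other class I bHLH-PAS genes PER1, a clock gene, was 1.5-fold lower, with a ratio of 0.554. HIF1A, of the same list, whose protein also pairs with ARNT, had 0.716 of its Vector-2 level, and 0 of the 8 were 1.5-fold higher.

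**Figure D4:**
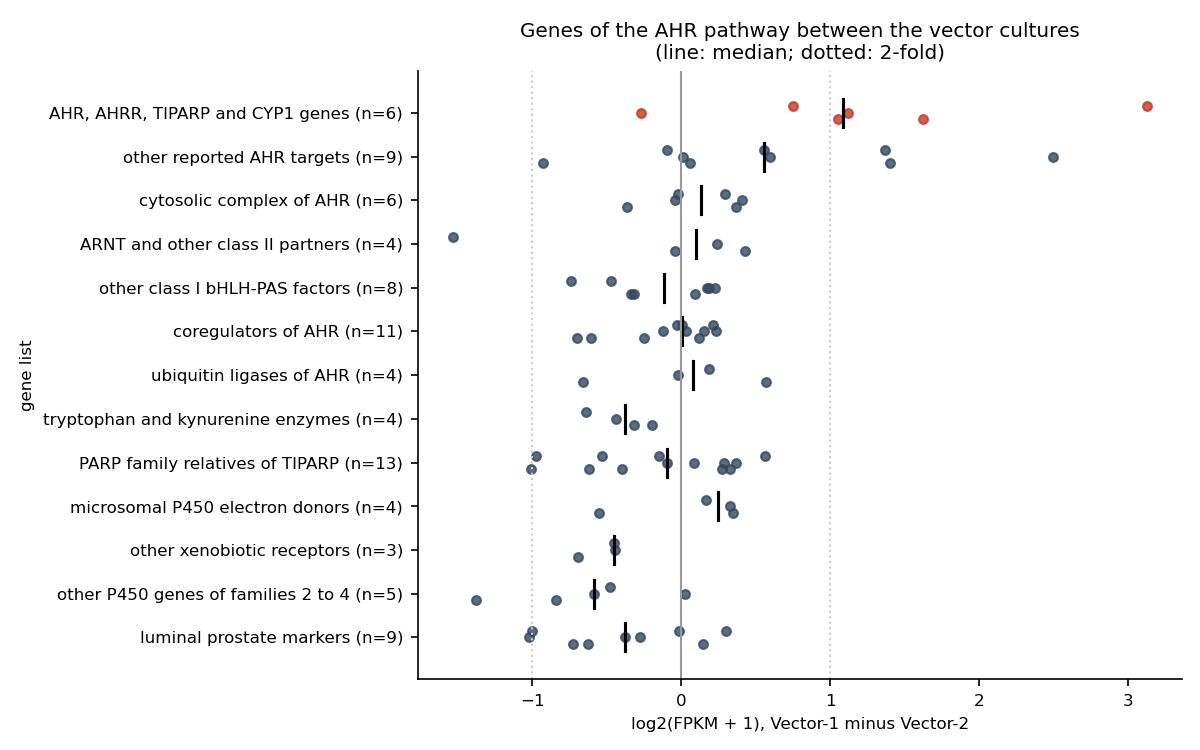
Difference in log2(FPKM + 1), Vector-1 minus Vector-2 (horizontal axis), for genes that averaged at least 1 FPKM in each list (rows), with all 6 genes, AHRR included, in the top row; each point is a gene, short lines are medians and dotted lines mark 2-fold. UGT1A1 at 2.5 is the point nearest to CYP1A1 at 3.13, and ARNTL at -1.54 is the lowest.

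Genes with the pattern closest to that of CYP1A1 were ranked by Euclidean distance between centred log2(FPKM + 1) profiles over the 5 libraries, among 11879 protein-coding genes. The 5 nearest were ANXA3 at a distance of 0.345, LBH at 0.409, MYL9 at 0.679, UGT1A1 at 0.679 and ANKRD1 at 0.718. ANXA3, an annexin, was at 11.4 FPKM in ESM1 against 10.8 in Vector-1, and 1.04 in ESM1-NLS and 0.60 in ESM1-NES against 0.88 in Vector-2. For AHR the 5 nearest were ARAP2 at 0.0724, CYP1B1 at 0.0980, CREB5 at 0.0982, STAG1 at 0.113 and SYTL2 at 0.115. CYP1B1 was thus the second nearest to AHR by this measure. The libraries of a table share its normalisation, so any gene that differs between the tables by a like amount lies near.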

How the data were processed

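The submitters' processing notes name Trimmomatic, Bowtie2, RSEM and hg19, without versions or order; whether the kit marks strand is not stated there. The authors deposited FPKM, TPM and expected counts for ESM1-NLS, ESM1-NES and Vector-2, per the file headers, and values without a unit name for ESM1 and Vector-1, taken as FPKM. The deposited fold change and the score PPEE are the authors' own and were used only where named as theirs.

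Ratios of FPKM and differences of log2(FPKM + 1), which understate changes of low genes, were computed with Python 3.11.15 and scipy 1.17.1. TMM factors, an alternative scaling, came from edgeR 4.0.16 on expected counts rounded to whole numbers. A gene was counted when it averaged at least 1 FPKM over both libraries and the log2 difference passed the fold limit. Depth of ESM1 and Vector-1 was set where most low values became whole reads, within 0.15 reads for 93.5% and 98.1% of them. The steps were tested on simulated data. Symbols were matched to RefSeq on GRCh38.p14 (25383 of 26506), GC content is from reference transcripts of that build, and no hg19 coordinates are given. Named genes are the 6 genes, up to 3 of each list by largest difference, listed genes that overlap or neighbour them and the 5 nearest profiles. NQO1, SLC7A5, NFE2L2, STC2, CYP2S1, PTGS2, ARNT, IDO1, IDO2, TDO2, NR1I2 and NR1I3 are outside that rule and were named after their values were seen. Not all genes this rule covers are reported here. The 6 genes and the lists were chosen with earlier results of these data known.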

Additional observations from a re-analysis of the deposited data

Results flagged for a closer look

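The forms of ESM1 lay on opposite sides of their own vectors for 2 genes, with intervals that exclude 1 on both sides. CYP1A1 was at 1.39 times its Vector-2 level in ESM1-NLS and at 0.888 of its Vector-1 level in ESM1. TIPARP was at 1.30 times its Vector-1 level in ESM1 and at 0.8 of its Vector-2 level in ESM1-NES. Intervals that exclude 1 were common, in 34.8% of genes in ESM1 against Vector-1. Against Vector-2 they were found in 39.2% of genes in ESM1-NLS and 56.6% in ESM1-NES. The share of all genes that lay on opposite sides is not given here. The difference between the forms was not tested, since each group is 1 library and the pairs come from separate tables.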

How the results depend on the processing

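Each group is 1 library, so no replicate could be left out. No paired analysis was possible because each group has 1 library, so no 2 pairs share a number. Between the vectors, the log2 difference of CYP1A1 was 3.13, and it was 3.37 with a pseudocount of 0.1, 2.43 with a pseudocount of 5 and 3.36 with TPM computed from FPKM, an alternative chosen after seeing the data. The count of the 6 genes at least 2-fold higher was 4, where 1.08% of 12685 genes were higher by that much. It was 1 with a pseudocount of 5 and 2 with a mean of 5 FPKM or more. Shares of all genes at these alternative settings are not given here. At 1.5-fold 1 gene, CYP1A2, was lower in ESM1 against Vector-1, at -0.66; a pseudocount of 5 gave -0.28, which ends that call, and Vector-2 as control gave 0.96. With the vector of the other table as control, CYP1A1 had 2.96 in ESM1, -2.73 in ESM1-NLS and -3.06 in ESM1-NES. Of the 6 genes, 4 were 2-fold higher, 4 lower and 5 lower in these comparisons. Over all genes 118 were 2-fold higher and 283 lower in ESM1. In ESM1-NLS 703 were higher and 160 lower, and in ESM1-NES 710 were higher and 304 lower. These are numbers of genes, and the shares they make up are not given here. The 6 genes were chosen with earlier results of these data known, so their counts describe them and support nothing. The cause of the shifts with the other control was not tested. TPM moved all genes by 0.11 between the vectors, -0.12 in ESM1-NES against Vector-2 and 0.13 in ESM1-NLS against ESM1-NES. Of 155 alternative values for the other 5 genes, 135 stayed within counting error, 20 moved further and 0 reversed a 2-fold call. At the main settings these genes passed 2-fold only between the vectors, so most of the 155 values had no call to reverse. A call that was only lost, as between the vectors with a pseudocount of 5, was not counted as reversed. AHR in ESM1-NES moved to -0.15 when centred on its band of length. Counts over all genes depended on the settings, the fold limit among them. Between the vectors 137 were higher and 465 lower at 2-fold, with ranges of 60 to 623 and 83 to 1814. The upper ends, 623 and 1814, are the counts at the looser limit of 1.5-fold. Within tables the counts at 2-fold were 33 and 2 in ESM1, 10 and 6 in ESM1-NLS and 9 and 20 in ESM1-NES. They were 7 and 11 in ESM1-NLS against ESM1-NES. In the same order they ranged over 6 to 146, 0 to 40, 3 to 48, 1 to 65, 1 to 50, 1 to 279, 0 to 100 and 0 to 46. The upper ends are here too the counts at the looser limit of 1.5-fold. Depth limits CYP1A2, with 3 to 15 reads in ESM1-NLS, ESM1-NES and Vector-2, and AHRR, with about 31 to 88 reads in the 5 libraries.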
